A study of Mus musculus with 6 samples.

Results

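The 10 genes described here encode the enzymes that hydroxylate collagen and the chaperones that guard its folding: P4ha1, P4ha2, P4ha3, P4hb, Plod1, Plod2, Plod3, Serpinh1, Fkbp10 and Crtap. They were chosen by name from that pathway, out of 22824 genes listed for each library, and all 10 were found. Femurs of C57BL/6 mice were profiled by paired-end RNA sequencing in 3 OE and 3 Ctrl libraries. OE mice carried DMP1-Cre and were homozygous for R26-Wnt7b, so that Wnt7b was switched on at the R26 locus in the osteocytes and mature osteoblasts where Dmp1 sequence drives Cre. Ctrl mice were littermates with the same R26-Wnt7b allele and no Cre. The submitters described all femurs as freed of cartilage and marrow cells. Transcripts of marrow cells were nonetheless abundant in every library, and cartilage markers were found in each, as given below. No age is stated. No label says that the libraries came from separate animals, and p-values then cover only the spread between these samples, which may be technical.

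Collagen is made in the endoplasmic reticulum of osteoblasts, where its chains are modified while still unfolded. Prolyl 4-hydroxylase, a tetramer of P4ha catalytic subunits and P4hb, makes the hydroxyproline that keeps the triple helix stable at body temperature. The lysyl hydroxylases of the Plod genes mark the lysines that later carry sugars and crosslinks, and HSP47 (Serpinh1), FKBP65 (Fkbp10) and the complex that holds CRTAP bind or fold the chains on their way out. In humans, loss of CRTAP, SERPINH1, FKBP10 or PLOD2 causes brittle bone disease.

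Values are FPKM, which scales fragments to transcript length and to the mapped fragments of a library, so levels of different genes can be set beside each other within a library. Absolute depth is unknown, and steps between low values put the relative depths at 1 to 1.18. Wnt7b, the transgene of the OE mice, stood at 2.49, 0.661 and 0.295 FPKM in OE 1, 2 and 3, against 0.909 in the library labelled Ctrl 1, with 0.00833 in Ctrl 2 and a listed 0 in Ctrl 3. The library labelled Ctrl 1 thus went against its label, so comparisons are given with and without it. OE 3 held 7.45% of its FPKM in haemoglobin genes, where the other OE libraries held 0.220% and 0.297% and the Ctrl libraries 0.230% to 1.26%. The neutrophil genes S100a8 and S100a9 held 7.25% in OE 3 and 16.3% in OE 2, with the other libraries between. Transcripts of marrow cells were thus present in every library despite the submitters' description.

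Most of the genes stood high in the OE libraries, as in the library labelled Ctrl 1, and low in Ctrl 2 and Ctrl 3. All 3 OE values lay above both Ctrl 2 and Ctrl 3 in 8 of the 10 genes and below both in 0, where 18.3% of the 12177 genes tested lay above and 18.6% below. OE and the library labelled Ctrl 1 together lay above Ctrl 2 and Ctrl 3 in the same 8, as in 16.7% of genes tested. The exceptions were P4hb and Plod3. With the library labelled Ctrl 1 included, the groups overlapped in all 10 genes, where OE lay wholly above Ctrl in 4.59% of the genes tested and wholly below it in 8.97%. The library labelled Ctrl 1 lay within the OE range in 8 genes and was the highest of all 6 libraries in P4hb and Plod3. Among OE and the library labelled Ctrl 1, OE 3 was the lowest in all 10 genes, and OE 1 exceeded it by 1.64-fold to 2.55-fold. The share over all genes was not computed. In P4hb and Plod3, OE 3 also lay below Ctrl 2 and Ctrl 3. None of the 10 genes was listed at 0 in any library.

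**Figure D1:**
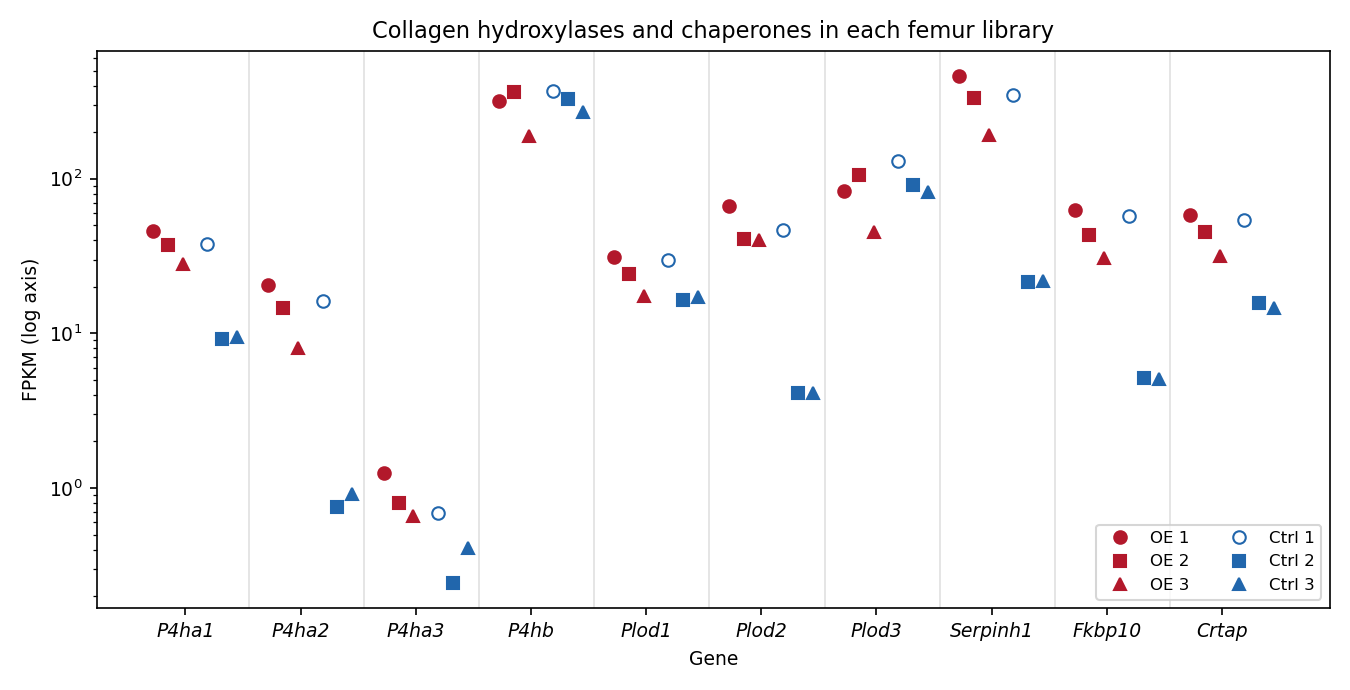
FPKM on a log axis for each of the 10 genes, with 1 point per library: OE in red, Ctrl in blue, and the library labelled Ctrl 1 as an open circle. P4hb, Plod1 and Plod3 spread less over the libraries than the other genes, while Ctrl 2 and Ctrl 3 fall far below the others in Serpinh1, Plod2, Fkbp10 and P4ha2.

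Differences were modelled on log2(FPKM + 1), which understates the change of low genes, with limma over all genes that reached 1 FPKM in at least 3 libraries. Of the 10 genes 9 passed this filter; P4ha3 did not. With all 6 libraries, 0 of the 9 reached an adjusted p of 0.05 by limma, and 0% of all genes tested (smallest adjusted p = 0.554). Without adjustment, 1 of the 9, Plod2, fell under 0.05 by limma with or without a trend, as did 8.20% of all genes with the trend. The median difference of the 9 was 1.23, where that of all genes was -0.042. Without the library labelled Ctrl 1, 6 of the 9 were called higher in OE and 0 lower, where 4.9% of all genes were called, 4.25% higher and 0.649% lower. The same 6 were called higher with array weights (8.18% of all genes higher, 3.27% lower). They were also called when both OE 3 and the library labelled Ctrl 1 were left out (7.92% of all genes higher, 3.48% lower). Under either setting 11.4% of all genes were called. The weights were 0.414 for the library labelled Ctrl 1, 0.421 for OE 3 and 5.82 for Ctrl 2. Neither setting is therefore independent of leaving out that first library. The 6 were Plod2, Serpinh1, Fkbp10, P4ha2, P4ha1 and Crtap, and without the library labelled Ctrl 1 the median of the 9 was 1.87, where that of all genes was -0.064.

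**Figure D2:**
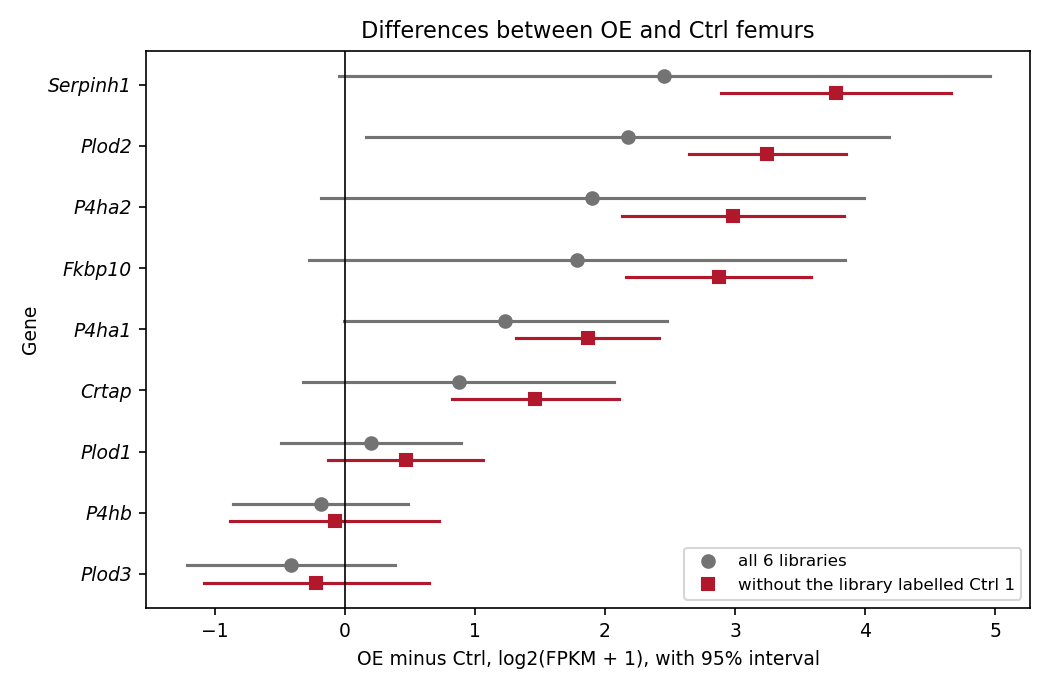
OE minus Ctrl on log2(FPKM + 1), with 95% intervals, for the 9 genes tested; grey circles use all 6 libraries and red squares leave out the library labelled Ctrl 1. Without that library the intervals of Plod1, P4hb and Plod3 include 0 and those of the other 6 genes lie above it.

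P4ha1 and P4ha2 encode the catalytic alpha subunits of prolyl 4-hydroxylase in most tissues, and both were several-fold higher in OE than in Ctrl 2 and Ctrl 3. P4ha1 (ENSMUSG00000019916, chromosome 10, 59323296 to 59373304, plus strand) stood at 46.2, 37.4 and 28.1 FPKM in OE 1, 2 and 3. It stood at 37.6 FPKM in the library labelled Ctrl 1, with 9.14 in Ctrl 2 and 9.41 in Ctrl 3. The 2 low Ctrl libraries lay 4.01-fold below the OE mean, and the library labelled Ctrl 1 was level with OE 2. The P4ha1 difference was 1.23 (SE 0.52, limma adjusted p = 0.554) with all 6 libraries and 1.87 (SE 0.23, limma adjusted p = 0.0105) without the library labelled Ctrl 1.

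P4ha2 (ENSMUSG00000018906, chromosome 11, 54100095 to 54131665, plus strand) had the largest fold of the group against Ctrl 2 and Ctrl 3. It stood at 20.5, 14.6 and 8.06 FPKM in OE, against 16.3 in the library labelled Ctrl 1, with 0.752 in Ctrl 2 and 0.921 in Ctrl 3. The OE mean was 17.2-fold that of Ctrl 2 and Ctrl 3, both of which were under 1 FPKM. P4ha2 differed by 1.90 (SE 0.88, limma adjusted p = 0.554) with all 6 libraries and by 2.98 (SE 0.35, limma adjusted p = 0.0102) without the library labelled Ctrl 1. P4ha3 (ENSMUSG00000051048, chromosome 7, 100285520 to 100319699, plus strand), the least expressed alpha subunit, stood at 1.26, 0.798 and 0.655 FPKM in OE, against 0.688, 0.245 and 0.409 in Ctrl (that labelled Ctrl 1 first). It was not tested in the filtered fit; with no filter its difference was 0.39 (SE 0.16, limma adjusted p = 0.599).

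P4hb, the beta subunit of the same tetramer and the protein disulfide isomerase of the endoplasmic reticulum, did not share this pattern. P4hb (ENSMUSG00000025130, chromosome 11, 120560298 to 120573253, minus strand) stood at 319.9, 363 and 189 FPKM in OE, against 369 in the library labelled Ctrl 1, with 327 in Ctrl 2 and 268 in Ctrl 3. The 2 groups overlapped with or without the library labelled Ctrl 1, and OE 3 was the lowest of all 6 libraries. The P4hb difference was -0.18 (SE 0.28, limma adjusted p = 0.822) with all 6 libraries. Without that Ctrl library it was -0.079, with a 95% interval of -0.88 to 0.73 (limma adjusted p = 0.935). The level of P4hb relative to the summed alpha subunits was therefore 4.71, 6.88 and 5.14 in OE, against 6.77 in the library labelled Ctrl 1, with 32.2 and 24.9 in Ctrl 2 and Ctrl 3. P4hb ranked between 241 and 360 among the 22824 genes of every library.

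The makeup of the alpha subunit pool differed in the same libraries. P4ha2 made up 30.2%, 27.7% and 21.9% of the summed FPKM of the 3 alpha genes in OE, against 29.8% in the library labelled Ctrl 1, with 7.41% in Ctrl 2 and 8.57% in Ctrl 3. P4ha1 made up 68.0% to 76.3% in OE, against 68.9%, 90.2% and 87.6% in Ctrl, in the same order. The P4ha2 share averaged 26.6% ± 4.26 in OE and 15.3% ± 12.6 in Ctrl (SD, n = 3 each). That difference of 11.3 percentage points was within the replicate spread (exact two-sided permutation p = 0.3, adjusted p = 0.45 over 6 shares; with 3 libraries a group no p can fall below 0.1). It was 18.6 percentage points without the library labelled Ctrl 1 (exact permutation p = 0.2, the smallest that 3 against 2 allow).

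**Figure D3:**
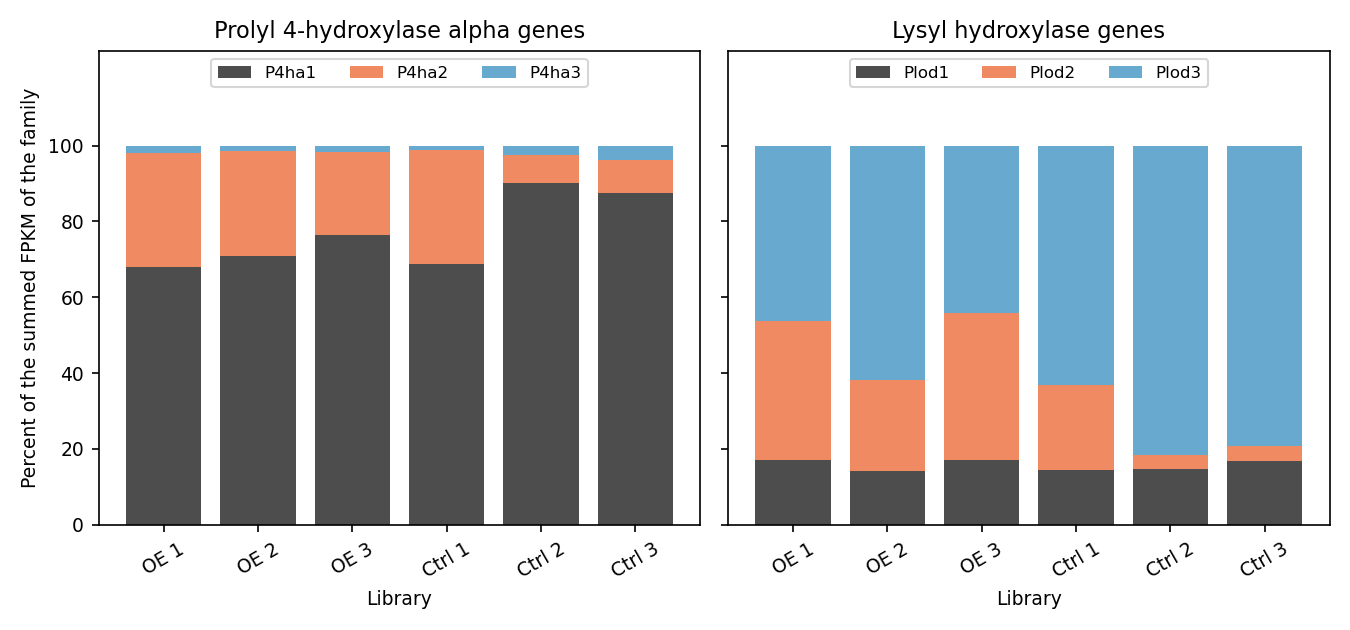
Stacked bars of the percent that each gene took of the summed FPKM of its family, for the alpha subunits of prolyl 4-hydroxylase (left) and the lysyl hydroxylases (right), in each library. P4ha2 and Plod2 take a larger share in OE 1, 2 and 3, and also in the library labelled Ctrl 1, than in Ctrl 2 and Ctrl 3.

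Sequence before the transcription start is shown for P4ha1, P4ha2 and Serpinh1, which were low in Ctrl 2 and Ctrl 3, and for P4hb and Plod3, which were not. The RefSeq promoter table (GRCm38.p6) held a window, from 250 bases before to 50 after the start, for 8 of the 10 genes. Capitals mark each match to ACGTG, the core of the element bound by the hypoxia-inducible factors, on either strand (CACGT on the minus strand). The P4ha1 sequence is chr10:59323046-59323295, plus strand, P4ha2 is chr11:54100674-54100923, plus strand, Serpinh1 is chr7:99353240-99353489, minus strand, P4hb is chr11:120573254-120573503, minus strand, and Plod3 is chr5:136986769-136987018, plus strand; each is written 5′ to 3′ up to the base before the start. The RefSeq start of P4ha2 lies inside the gene span given above.
P4ha1: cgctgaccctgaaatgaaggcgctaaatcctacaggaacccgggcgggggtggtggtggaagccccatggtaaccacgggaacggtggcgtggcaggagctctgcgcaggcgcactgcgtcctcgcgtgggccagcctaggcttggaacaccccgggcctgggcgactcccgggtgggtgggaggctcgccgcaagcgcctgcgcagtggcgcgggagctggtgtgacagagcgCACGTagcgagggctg
P4ha2: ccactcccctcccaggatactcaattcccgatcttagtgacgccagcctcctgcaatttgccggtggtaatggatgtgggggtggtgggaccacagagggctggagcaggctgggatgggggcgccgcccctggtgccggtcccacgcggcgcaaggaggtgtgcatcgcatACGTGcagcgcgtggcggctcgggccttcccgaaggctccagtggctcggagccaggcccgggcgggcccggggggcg
Serpinh1: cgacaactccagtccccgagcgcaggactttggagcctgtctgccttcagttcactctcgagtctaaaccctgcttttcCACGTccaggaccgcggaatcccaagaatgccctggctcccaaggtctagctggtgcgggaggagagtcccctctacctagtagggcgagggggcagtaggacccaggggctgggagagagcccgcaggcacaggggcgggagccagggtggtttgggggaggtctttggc
P4hb: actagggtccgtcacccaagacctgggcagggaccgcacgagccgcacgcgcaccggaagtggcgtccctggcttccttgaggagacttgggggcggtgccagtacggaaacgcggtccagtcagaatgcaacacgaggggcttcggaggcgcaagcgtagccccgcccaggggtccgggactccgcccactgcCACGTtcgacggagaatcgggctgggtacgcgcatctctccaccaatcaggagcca
Plod3: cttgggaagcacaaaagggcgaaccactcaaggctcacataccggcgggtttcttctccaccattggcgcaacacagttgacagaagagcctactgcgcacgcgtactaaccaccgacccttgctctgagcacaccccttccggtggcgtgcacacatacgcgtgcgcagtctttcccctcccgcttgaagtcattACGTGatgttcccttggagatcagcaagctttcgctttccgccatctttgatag
ACGTG was found in the windows of these 5 genes and not in those of P4ha3, Plod1 and Crtap. That made 5 of 8, where 19.6% of 32851 windows of the same length held it. G and C made up 53.3% to 70.3% of the 8 windows, and the 19.6% was not matched for this content. Enrichment was not tested. P4ha2 and P4hb had a further match after the start. The match was therefore present in genes of both patterns, and absent from Crtap, which was also low in Ctrl 2 and Ctrl 3. The 5 sequences shown are those that held it. GGGCGG, the GC box, was found in 7 of the 8 windows (35.7% of all windows), CCAAT in those of P4hb and Plod3 (37.4%), and GAANNTTC, a heat shock element core, in that of Plod1 after its start (7.86%). The endoplasmic reticulum stress element, CCAAT and CCACG with 9 bases between them, matched in 0 of the 8 (0.119% of all windows). Both strands were searched for each motif; the stress element contains the CCAAT box, and a match describes letters only.

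Among the lysyl hydroxylases, Plod2 was much lower in Ctrl 2 and Ctrl 3, while Plod1 and Plod3 passed no test. Plod2 hydroxylates lysines in the telopeptides of collagen, the ends that carry the crosslinks typical of bone. Plod2 (ENSMUSG00000032374, chromosome 9, 92542223 to 92608428, plus strand) stood at 66.1, 40.6 and 40.0 FPKM in OE, against 46.5 in the library labelled Ctrl 1, with 4.12 in Ctrl 2 and 4.11 in Ctrl 3. The OE mean was 11.9-fold that of Ctrl 2 and Ctrl 3, while Plod2 in the library labelled Ctrl 1 lay between OE 1 and OE 2. Plod2 differed by 2.18 (SE 0.85, limma adjusted p = 0.554) with all 6 libraries and by 3.25 (SE 0.25, limma adjusted p = 0.00294) without the library labelled Ctrl 1.

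Plod1, which hydroxylates lysines of the helix, overlapped between the groups only through the library labelled Ctrl 1. Plod1 (ENSMUSG00000019055, chromosome 4, 147909753 to 147936767, minus strand) stood at 30.9, 24.3 and 17.5 FPKM in OE, against 29.9, 16.3 and 17.3 in Ctrl (that labelled Ctrl 1 first). OE 3 and Ctrl 3 were close to each other. The Plod1 difference was 0.20 (SE 0.29, limma adjusted p = 0.809) with all 6 libraries, and without the library labelled Ctrl 1 it was 0.47 with a 95% interval of -0.13 to 1.07 (limma adjusted p = 0.421). Plod3, whose protein also adds glucose to galactosylhydroxylysine, was the most abundant lysyl hydroxylase transcript in each library. Plod3 (ENSMUSG00000004846, chromosome 5, 136987019 to 136996648, plus strand) stood at 83.7, 105 and 45.5 FPKM in OE, against 130.3, 90.9 and 81.5 in Ctrl, in the same order. Its difference was -0.42 (SE 0.34, limma adjusted p = 0.652) with all 6 libraries, and without the library labelled Ctrl 1 it was -0.22 with a 95% interval of -1.08 to 0.64 (limma adjusted p = 0.807). Plod3 shares 529 exon bases with Znhit1 on the other strand, and without a stated strand setting reads of the 2 genes may be mixed. Znhit1 stood at 61.3, 101 and 49.3 FPKM in OE, against 137, 113 and 83.7 in Ctrl.

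Within this family the shares of Plod2 and Plod3 differed most between the groups. Plod2 made up 36.6%, 23.9% and 38.8% of the summed lysyl hydroxylase FPKM in OE, against 22.5% in the library labelled Ctrl 1, with 3.70% in Ctrl 2 and 3.99% in Ctrl 3. Plod3 made up 46.3%, 61.8% and 44.2% in OE, against 63.0%, 81.6% and 79.2% in Ctrl. In these 2 shares the groups did not overlap even with the library labelled Ctrl 1, though OE 2 and that library lay close together. The shares of a family sum to the whole and that of Plod1 varied little, so these 2 largely mirror each other. The FPKM of Plod3 itself overlapped between the groups (-0.42, limma adjusted p = 0.652 with all 6 libraries). Shares in other gene families were not computed. The Plod2 share averaged 33.1% ± 8.04 in OE and 10.1% ± 10.8 in Ctrl, and the Plod3 share 50.8% ± 9.63 in OE and 74.6% ± 10.1 in Ctrl (SD, n = 3 each). Both reached an exact two-sided permutation p = 0.1, the smallest that 3 against 3 libraries allow, with an adjusted p = 0.3 over the 6 shares. Without the library labelled Ctrl 1 the differences were 29.3 percentage points for Plod2 and -29.7 for Plod3 (exact permutation p = 0.2 for each, again the smallest possible). The Plod1 share was 14.3% to 17.1% in OE and 14.5% to 16.8% in Ctrl (exact permutation p = 0.6). The summed FPKM of the family was 181, 170.0 and 103 in OE, against 207, 111 and 103 in Ctrl.

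Serpinh1, which encodes HSP47, the chaperone that binds the collagen triple helix, had the largest log2 difference of the group. Serpinh1 (ENSMUSG00000070436, chromosome 7, 99345376 to 99353239, minus strand) stood at 461, 331 and 193 FPKM in OE, against 349 in the library labelled Ctrl 1, with 21.5 in Ctrl 2 and 21.8 in Ctrl 3. OE 3 alone was still far above Ctrl 2 and Ctrl 3, while the library labelled Ctrl 1 lay between OE 1 and OE 2. Its rank among all genes was 169, 283 and 357 in OE, against 268 in the library labelled Ctrl 1, with 4105 and 3908 in Ctrl 2 and Ctrl 3. Serpinh1 differed by 2.46 (SE 1.05, limma adjusted p = 0.554) with all 6 libraries and by 3.77 (SE 0.37, limma adjusted p = 0.00552) without the library labelled Ctrl 1. Serpinh1 and P4hb were the most abundant of the 10 genes in each OE library and in that labelled Ctrl 1, and in Ctrl 2 and Ctrl 3 Serpinh1 was below both P4hb and Plod3.

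Fkbp10 encodes FKBP65, a prolyl isomerase of the endoplasmic reticulum on which telopeptide lysyl hydroxylation depends. Fkbp10 (ENSMUSG00000001555, chromosome 11, 100415697 to 100424824, plus strand) stood at 63.0, 43.0 and 30.7 FPKM in OE, against 57.5 in the library labelled Ctrl 1, with 5.11 in Ctrl 2 and 5.08 in Ctrl 3. Without the library labelled Ctrl 1 it differed by 2.87 (SE 0.30, limma adjusted p = 0.00686), and with it by 1.79 (SE 0.87, limma adjusted p = 0.558). The level of Plod2 relative to Fkbp10 was 1.05, 0.945 and 1.30 in OE, against 0.809 in the library labelled Ctrl 1, with 0.806 and 0.808 in Ctrl 2 and Ctrl 3. OE thus lay wholly above Ctrl in this ratio, which was among several computed, with OE 2 nearest to Ctrl. The difference was not tested, and the share over other gene pairs was not computed. Fkbp10 lies 860 bases from P3h4, which encodes a partner of lysyl hydroxylase, on the opposite strand. P3h4 stood at 20.7, 16.9 and 11.9 FPKM in OE, against 18.8, 1.45 and 1.75 in Ctrl, and Fkbp10 was 2.54 to 3.04 times P3h4 in OE and 2.90 to 3.54 times it in Ctrl. Fkbp10 shares 193 exon bases with Nt5c3b on the other strand, which stood at 11.2 to 15.0 FPKM in OE and 11.1 to 15.6 in Ctrl.

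Crtap, the scaffold of the complex that makes the rare prolyl 3-hydroxylation of collagen, was higher in OE than in Ctrl 2 and Ctrl 3 by a smaller fold. Crtap (ENSMUSG00000032431, chromosome 9, 114375134 to 114390675, minus strand) stood at 58.4, 45.0 and 31.7 FPKM in OE, against 54.3 in the library labelled Ctrl 1, with 15.8 in Ctrl 2 and 14.6 in Ctrl 3. The OE mean was 2.96-fold that of Ctrl 2 and Ctrl 3. Crtap differed by 0.87 (SE 0.50, limma adjusted p = 0.565) with all 6 libraries and by 1.46 (SE 0.27, limma adjusted p = 0.0340) without the library labelled Ctrl 1. P3h1, the enzyme of this complex, stood at 31.0, 22.1 and 14.5 FPKM in OE, against 24.6, 4.87 and 4.96 in Ctrl. It differed by 1.23 (SE 0.60, limma adjusted p = 0.558) with all 6 libraries. Without the library labelled Ctrl 1 it differed by 1.93 (SE 0.30, limma adjusted p = 0.0210). Ppib, the cyclophilin of the complex and a general folding enzyme, stood at 122, 153 and 107 FPKM in OE, against 136, 119 and 90.5 in Ctrl. Its difference was 0.15 (SE 0.22, limma adjusted p = 0.809) with all 6 libraries and 0.28 (SE 0.24, limma adjusted p = 0.626) without that library. Ppib shares 825 exon bases with Snx22 on the other strand. Crtap was 1.88 to 2.18 times P3h1 in OE, against 2.21 times in the library labelled Ctrl 1, with 3.25 and 2.95 times in Ctrl 2 and Ctrl 3.

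The rest of the collagen folding and export pathway divided in a similar way. Of 17 further genes tested, 15 had a positive difference with all 6 libraries (median 0.54), where 43.7% of all genes did. By limma 0 of the 17 passed the adjusted threshold, and 2 had an unadjusted p under 0.05, as did 8.20% of all genes. Without the library labelled Ctrl 1, 7 rose and 0 fell, with a median of 0.72, where 4.25% of all genes rose and 0.649% fell. The 7 were Fkbp7, P3h4, Fkbp14, Fkbp9, P3h3, P3h1 and Creb3l1. Fkbp14, a prolyl isomerase whose loss causes a form of Ehlers-Danlos syndrome in humans, stood at 12.2, 9.31 and 6.31 FPKM in OE, against 8.48, 0.923 and 1.17 in Ctrl (that labelled Ctrl 1 first). Fkbp7 stood at 59.9, 54.5 and 35.3 FPKM in OE, against 55.2, 5.43 and 5.04 in Ctrl, and Fkbp9 at 68.4, 46.5 and 35.4 FPKM in OE, against 51.3, 10.3 and 10.1 in Ctrl. Sec23a, a coat protein of the vesicles that export procollagen, stood at 20.8, 16.7 and 13.8 FPKM in OE, against 14.8, 10.3 and 9.45 in Ctrl. Its difference was 0.54 (SE 0.22, limma adjusted p = 0.554) with all 6 libraries. Without the library labelled Ctrl 1 it was 0.72 (SE 0.20, limma adjusted p = 0.120).

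General folding genes of the endoplasmic reticulum, such as the isomerase Pdia3, gave no call by limma, nor an unadjusted p under 0.05 with all 6 libraries. Of 12 tested, 2 were positive with all 6 libraries (median -0.14), where 43.7% of all genes were. Without the library labelled Ctrl 1, 5 were positive (41.5% of all genes), 0 rose and 0 fell (median -0.043). Pdia3 stood at 209, 242 and 129 FPKM in OE, against 253, 239.7 and 196 in Ctrl (that labelled Ctrl 1 first). Ero1lb, which reoxidises protein disulfide isomerase, stood at 6.53, 7.53 and 5.64 FPKM in OE, against 6.77, 9.30 and 9.16 in Ctrl.

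P4ha1, P4ha2 and Plod2 are known targets of hypoxia-inducible factor in cultured cells. Other hypoxia targets are described beside them, and whether hypoxia played a part was not tested. Of 14 tested, 6 were positive with all 6 libraries (median -0.061), where 43.7% of all genes were. By limma 1 of the 14 had an unadjusted p under 0.05 (8.20% of all genes) and 0 an adjusted one. Without the library labelled Ctrl 1, 7 were positive (41.5% of all genes), 0 rose and 0 fell (median -0.094). Eno1, a glycolytic enzyme, stood at 428, 551 and 281 FPKM in OE, against 731, 724 and 598 in Ctrl, OE lying wholly below Ctrl. Its difference was -0.75 (SE 0.28, limma adjusted p = 0.554) with all 6 libraries. Without the library labelled Ctrl 1 it was -0.70 (SE 0.34, limma adjusted p = 0.388). Adm, which encodes adrenomedullin, stood at 2.31, 1.12 and 1.79 FPKM in OE, against 1.46, 0.629 and 0.388 in Ctrl.

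The collagen chains that these enzymes modify were low in the same libraries. Of 10 chains tested, all 10 were positive with all 6 libraries (median 1.78), where 43.7% of all genes were. By limma 0 of the 10 were called, and 5 had an unadjusted p under 0.05 (8.20% of all genes). Without the library labelled Ctrl 1, 10 rose (median 2.75), where 4.25% of all genes rose. Col3a1 stood at 140.2, 74.0 and 84.1 FPKM in OE, against 106, 13.7 and 13.5 in Ctrl, and Col5a1, a chain of the fibrils that type I collagen builds on, at 84.9, 49.0 and 41.4 FPKM in OE, against 61.0, 8.86 and 9.03 in Ctrl. Col1a1 and Col1a2, the main substrate, were left out of these counts because OE 1 and the library labelled Ctrl 1 list them at 0. Serpinh1 was 5.42, 6.75 and 4.66 times Col5a1 in OE, against 5.72 times in the library labelled Ctrl 1, with 2.43 and 2.41 times in Ctrl 2 and Ctrl 3. In the libraries where Col1a2 is above 0, Serpinh1 was 0.0821 and 0.0596 times Col1a2 in OE 2 and OE 3, against 0.109 and 0.0905 times in Ctrl 2 and Ctrl 3.

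**Figure D4:**
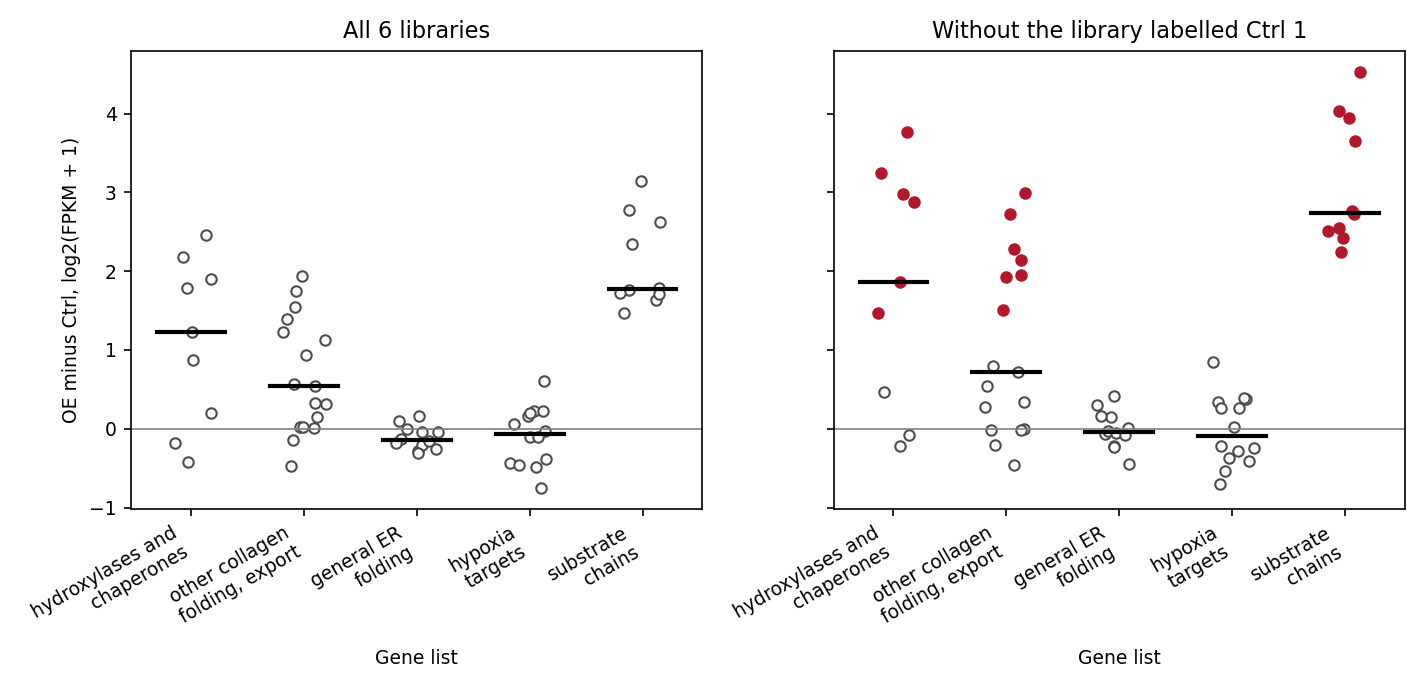
OE minus Ctrl on log2(FPKM + 1) for the tested genes of 5 lists, with all 6 libraries (left) and without the library labelled Ctrl 1 (right); black lines are medians, and filled red points passed an adjusted p of 0.05 by limma. Without the library labelled Ctrl 1, calls appear in the hydroxylases and chaperones, the other collagen folding genes and the substrate chains, and in 0 of the general folding genes and 0 of the hypoxia targets.

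Markers of several cell types, though not of all, moved with these genes. Among all genes tested, 43.7% had a positive difference with all 6 libraries, so negative differences were the more common. In bulk femurs, fewer cells of a type and less RNA per cell cannot be told apart. All 12 osteoblast markers were positive, and their summed level was 4189 to 6718 FPKM in OE, against 5859 in the library labelled Ctrl 1, with 362 to 452 in Ctrl 2 and Ctrl 3. Of 7 osteocyte markers tested 6 were positive, with sums of 218 to 635 FPKM in OE, against 430.3 in the library labelled Ctrl 1, with 63.2 to 69.9 in Ctrl 2 and Ctrl 3; Pdpn was listed at 0 in all libraries. All 7 cartilage markers were positive (250.5 to 514 FPKM in OE, against 323, 15.2 and 20.7 in Ctrl). Cartilage transcripts were thus found in every library despite the submitters' description. They were more abundant in OE and the library labelled Ctrl 1 than in Ctrl 2 and Ctrl 3. All 6 muscle markers (813 to 1046 FPKM in OE, against 934, 157 and 237 in Ctrl) were also positive. So were all 7 fibrous tissue markers (154 to 285 FPKM in OE, against 194, 32.1 and 35.5 in Ctrl). Of 5 osteoclast markers tested 4 were positive (1283 to 3680 FPKM in OE, against 3141, 1025 and 987 in Ctrl). With all 6 libraries limma called 0 of these markers. Without the library labelled Ctrl 1 it called 12 osteoblast, 3 osteocyte, 5 cartilage, 5 muscle, 5 fibrous tissue and 2 osteoclast markers higher. In that setting 4.25% of all genes were called higher. Col3a1 and Col2a1 stand both here and among the substrate chains. All 8 neutrophil markers were negative, with sums of 55623 to 155242 FPKM in OE and 95795 to 131603 in Ctrl. In OE 3, all 7 erythroid and all 7 B cell markers were at their highest. With all 6 libraries, all 7 B cell and 2 of the 7 erythroid markers were positive. So were 4 of 5 macrophage (median 0.14), all 5 endothelium (median 0.13) and 4 of 5 adipocyte markers (median 0.58). Without the library labelled Ctrl 1, limma called 1 adipocyte marker, Lpl, higher. It called 0 of the macrophage, endothelium, B cell, erythroid and neutrophil markers. The part of any of these cells in the results was not tested.

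Set against the osteoblast markers, the genes differed in course. Subtracting the mean log2(FPKM + 1) of the 12 osteoblast markers left Plod2 at -1.06, -1.36 and -0.92 in OE, against -1.14 in the library labelled Ctrl 1, with -1.09 and -1.02 in Ctrl 2 and Ctrl 3. All 6 Plod2 values thus lay in a range narrower than its difference between libraries. P4ha2 stood at -2.70, -2.78 and -3.09 in OE, against -2.60, -2.64 and -2.43 in Ctrl, and Fkbp10 at -1.12, -1.28 and -1.29 in OE, against -0.84, -0.84 and -0.77 in Ctrl. Serpinh1 stood at 1.73, 1.63 and 1.33 in OE, against 1.74, 1.04 and 1.13 in Ctrl, so that Ctrl 2 and Ctrl 3 remained lowest. P4ha1 stood at -1.56, -1.48 and -1.41 in OE, against -1.44, -0.11 and 0.0041 in Ctrl, and Crtap at -1.23, -1.22 and -1.24 in OE, against -0.92, 0.62 and 0.59 in Ctrl. P4hb stood at 1.20, 1.77 and 1.30 in OE, against 1.82, 4.91 and 4.69 in Ctrl. Plod1 stood at -2.13, -2.08 and -2.06 in OE, against -1.76, 0.66 and 0.82 in Ctrl, and Plod3 at -0.72, -0.012 and -0.74 in OE, against 0.33, 3.07 and 2.99 in Ctrl. P4ha3 stood at -5.95, -5.89 and -5.55 in OE, against -5.95, -3.13 and -2.88 in Ctrl. Relative to these markers Ctrl 2 and Ctrl 3 were thus the highest libraries in 7 of the 10 genes. These were P4ha1, P4ha3, P4hb, Plod1, Plod3, Fkbp10 and Crtap. In Fkbp10, Ctrl 2 and the library labelled Ctrl 1 were level at the precision given. P4ha2 (0.752 and 0.921 FPKM) and P4ha3 (0.245 and 0.409 FPKM) were under 1 FPKM in Ctrl 2 and Ctrl 3. The added 1 in log2(FPKM + 1) lifts such low values, so the order of the libraries for P4ha2 and P4ha3 may rest on it. The marker mean itself was 7.12, 6.74 and 6.27 in OE, against 6.71, 3.45 and 3.38 in Ctrl. A gene level over the libraries therefore comes out highest in Ctrl 2 and Ctrl 3 by the subtraction alone. The share over all genes was not computed, so the count of 7 is no trait of these genes.

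Among the genes tested outside the 10, those whose pattern over the 6 libraries was most like the mean of the 9 tested were Smoc2, Lpar3, Ccdc80, Myo1e and Hey1, with Pearson r from 0.998 to 0.9999 on log2(FPKM + 1). These values describe 6 libraries that fall into 2 sets, and they rest on the gap to Ctrl 2 and Ctrl 3. Smoc2 stood at 23.9, 17.2 and 8.31 FPKM in OE, against 20.9, 1.49 and 1.46 in Ctrl (that labelled Ctrl 1 first). Alpl, the alkaline phosphatase of osteoblasts, was among the 3 genes most like both P4ha1 and P4ha2, and Pth1r, the parathyroid hormone receptor, among those most like Fkbp10. P4hb was most like Surf4, an endoplasmic reticulum cargo receptor, at 127, 140.3 and 78.5 FPKM in OE, against 142, 126 and 107 in Ctrl (r = 0.999). Plod2 was most like Cdo1, Kcnk1 and Slc36a2, Serpinh1 like Cpe, Gdf10 and Tspan6, and Crtap like Myo1e, Ctsk (cathepsin K of osteoclasts) and Hey1. Plod1 was most like Calhm5, Amotl2 and Ctxn1, and Plod3 like Ptges2, Abcb8 and Tmem216.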

How the data were processed

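RNA of mouse femurs was measured in 3 OE and 3 Ctrl libraries; groups and replicate numbers come from the sample titles. Per the file headers, the deposited values are FPKM per gene. Per the submitters' processing notes, the tools were TopHat2, Cufflinks and DESeq and the build mm10. What each tool did, the strand setting and the handling of reads shared by similar genes are not given here. FPKM is scaled within a library, so a few abundant genes lower all others.

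Of 22824 rows, 21172 matched a symbol in GENCODE M21 (GRCm38, the assembly that mm10 names). With FPKM and no counts, limma 3.58.1 (R 4.3.3, trended eBayes) was run on log2(FPKM + 1). It took the 12177 genes that reached 1 FPKM in 3 or more libraries, with Benjamini-Hochberg adjustment over all of them and a threshold of 0.05. Family shares were compared with exact two-sided permutation tests. Genes named follow a fixed rule: the 10 genes, P3h1, Ppib, 4 collagen chains, the 2 to 4 genes of each further list with the smallest p, and those most like the 10 in pattern. Snx22, Znhit1, Nt5c3b, P3h4 and the other genes called in a list were added by name once their values had been seen. The members and lists were chosen with earlier results of these data known. The fit was tested on simulated data with independent errors and no deviating library. There it called 78.0% of log2 changes of 2 with all 6 libraries. These data hold a library that went against its label, so such rates do not carry over to them. Other calculations used Python 3.11.15 and scipy 1.17.1. Alternatives covered scaling, filters, pseudocount, variance model, array weights, the replicate block and left-out libraries.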

Additional observations from a re-analysis of the deposited data

How the results depend on the processing

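Counts of calls turned on 1 library. Leaving out 1 library at a time gave 0 to 597 genes called and 0 to 6 of the 9 hydroxylase and chaperone genes, with calls in 1 omission, that of the library labelled Ctrl 1. Array weights gave 1394 genes and 6 of the 9, the joint omission of that library and OE 3 gave 1388 and 6, and trimmed-mean scaling with that library left out, added after seeing the data, gave 615 and 6. The 6 were Plod2, Serpinh1, Fkbp10, P4ha2, P4ha1 and Crtap in each of these. The array weights were highest for Ctrl 2, at 5.82, and lowest for the library labelled Ctrl 1, at 0.414, with OE 3 close to it at 0.421. The other scalings, filters, pseudocount and variance model gave 0 calls. Over 16 settings, 144 values of the 9 genes kept their direction in all but 3. P4hb turned to 0.098 without OE 3 (range over single omissions -0.37 to 0.098) and to 0.20 under the joint omission, where Plod3 turned to 0.12; the cause was not tested. The difference in the Plod1 share turned to -0.028 percentage points in that setting. Over single omissions, the differences in share ran from 19.9 to 29.3 percentage points for Plod2, from -29.7 to -20.4 for Plod3, from 7.38 to 18.6 for P4ha2, from -17.2 to -6.55 for P4ha1, from -1.40 to -0.125 for P4ha3 and from 0.341 to 1.76 for Plod1.

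Same-numbered libraries deviated together from their group means with r = 0.442, 0.0866 and 0.311 for numbers 1, 2 and 3. OE 1 deviated most like the Ctrl library of its own number. OE 2 deviated most like the library labelled Ctrl 1 (r = 0.143) and OE 3 most like Ctrl 2 (r = 0.416). These values do not settle whether the numbers pair the samples. With the replicate block, 0 genes were called by limma and the smallest adjusted p of the 9 was 0.210. The block left each share difference in place, and 3 pairs allow no exact p below 0.25. Absolute depth is unknown, which leaves counting error at low values, as in P4ha2 and P4ha3 in Ctrl 2 and Ctrl 3, without an estimate.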
